A study of Mus musculus with 8 samples.

Results

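Cells sorted from embryonic mouse cortex at day E16.5, after electroporation with a control plasmid, were set against whole cortex at day E13.5. The comparison uses 4 of the 8 libraries of a series about the long noncoding RNA Lockd, chosen by their labels. They are the 2 control libraries of the electroporation experiment and the 2 wild-type libraries of the dissection experiment. The sorted cells came from wild-type ICR embryos whose lateral ventricle had been electroporated with the control plasmid at E14.5. Cells positive for GFP were collected by flow cytometry. The other cortex came from untreated wild-type C57BL/6 embryos, dissected at E13.5 and pooled. Both groups are wild type, and neither carries a Lockd hairpin or a knock-in allele. The sorted cells are those that took up plasmid at the ventricle and their descendants, and do not stand for the whole E16.5 cortex. Stage, strain, electroporation, dissociation and sorting differ together between the groups, so their parts in any difference below cannot be told apart. The replicates are described as biological, but how many embryos or litters stand behind a library is not given in the sources used here. The p-values therefore reflect only the spread between these libraries.

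In the embryonic cortex, radial glia line the ventricle, divide there, and give rise to intermediate progenitors and then to neurons that migrate outward. Deep-layer neurons are born first and upper-layer neurons later, and the production of glial cells follows. Blood vessels, meninges, blood cells, microglia and the early-born Cajal-Retzius cells enter or cover the tissue from other sources and are part of any whole dissection.

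Libraries of the sorted cells held 12805874 and 14357950 counts, and those of the WT cortex held 39334429 and 47460020. Levels are in CPM, that is, relative to the total count of the library. A limit of 3 counts equals 0.234 and 0.209 CPM in the sorted cells, against 0.0763 and 0.0632 CPM in the WT cortex. Replicates differed by more than sampling noise, with a chi-square per gene of 12.5 between the sorted libraries and 13.99 between the cortex libraries, and by less than the groups did, at 196 to 257. Of 15111 genes tested with edgeR's quasi-likelihood test, 9311 (61.6%) passed an adjusted p of 0.05, 4585 (30.3%) higher and 4726 (31.3%) lower in the sorted cells. Groups this far apart make such a call common, so a second threshold is given beside it: an adjusted p of 0.05 against a fold change of 2 or less, called here past 2-fold. It was passed by 2424 genes (16.0%), 1159 (7.67%) higher and 1265 (8.37%) lower. These shares over all tested genes are the background for every count of called list members below. In CPM, both sorted libraries lay above both cortex libraries for 40.4% of tested genes and below both for 41.6%. The median log2 fold change over all tested genes, sorted cells over WT cortex, was -0.02. Fold changes moved with the GC content of the transcript: their median was -0.37 in the 10% of genes with the lowest GC content and 0.78 in the 10% with the highest. A fit with offsets for GC content, an alternative chosen after seeing the data, called 4392 genes higher and 4387 lower.

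Markers of cortical neurons and progenitors were abundant in both groups. Dcx, a microtubule-associated protein of migrating neurons, stood at 1060 and 1198 CPM in sorted cells, against 1091 and 823 CPM in WT cortex. Eomes, the transcription factor of intermediate progenitors, was at 508 and 655 CPM in sorted cells, against 549 and 454 CPM in WT cortex. Neither was called (adjusted p of 0.15 and 0.20), but Dcx was called higher without sorted library 1 or cortex library 1 (log2 fold changes 0.34 and 0.44), and Eomes without sorted library 1 (0.40). Ttr, the transthyretin of the choroid plexus, and Wnt3a, a ligand of the cortical hem, had 0 counts in all 4 libraries. Other genes of the hem and choroid plexus list were detected. Rspo3 was at 9.84 and 15.8 CPM in sorted cells, against 11.6 and 9.1 CPM in WT cortex. Wnt5a was at 0.937 and 1.67 CPM in sorted cells, against 4.27 and 5.9 CPM in WT cortex. The list summed to 20.1 and 25.5 CPM in sorted cells, against 28.7 and 28.3 CPM in WT cortex. Many markers of vessels, meninges and red blood cells were present in the WT cortex and near or at 0 in the sorted cells, as given below. In bulk RNA, fewer cells of a type and less RNA per cell cannot be told apart.

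**Figure D1:**
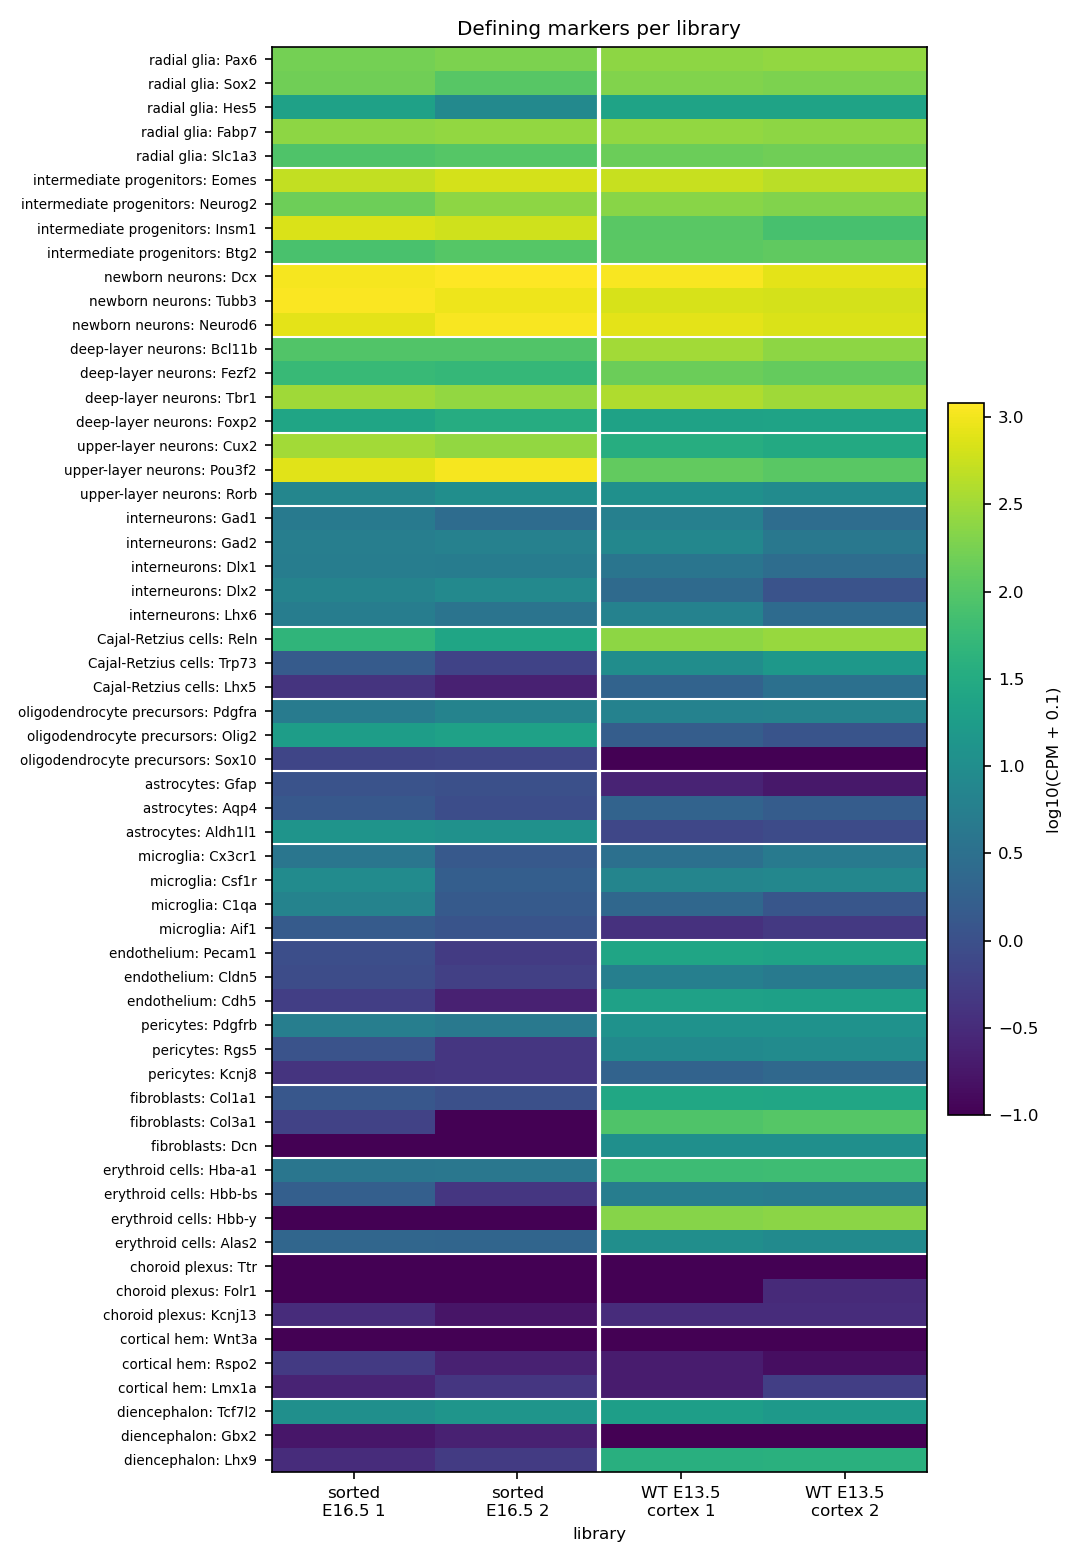
Levels of the defining markers in each library, as log10(CPM + 0.1), with the 2 sorted E16.5 libraries left and the 2 WT E13.5 cortex libraries right. The upper-layer markers Cux2 and Pou3f2 are brighter in the sorted cells, and those of endothelium, fibroblasts, erythroid cells and Cajal-Retzius cells are brighter in the WT cortex.

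Upper-layer neuron genes stood higher in the sorted cells and deep-layer genes lower. Of 15 tested upper-layer genes, 11 were called higher and 2 lower, beside 30.3% and 31.3% of all tested genes. Past 2-fold were 8 and 1 of them, beside 7.67% and 8.37%. The list's median log2 fold change was 1.60. Cux2, a homeodomain factor of layers II to IV, had 319.9 and 264 CPM in sorted cells, against 35.1 and 30.2 CPM in WT cortex (log2 fold change 3.15 ± 0.13, adjusted p = 4.3e-09). Both sorted libraries lay above both cortex libraries. Pou3f2, a POU-domain factor, had 792 and 1039 CPM in sorted cells, against 127 and 108 CPM in WT cortex (log2 fold change 2.96 ± 0.15). Its relative Pou3f1 had 192 and 159.6 CPM in sorted cells, against 8.67 and 6.74 CPM in WT cortex (log2 fold change 4.51 ± 0.15). Unc5d, a netrin receptor of multipolar migrating neurons, was at 409.9 and 468 CPM in sorted cells, against 45.4 and 30.8 CPM in WT cortex (log2 fold change 3.52 ± 0.17, adjusted p = 1.7e-08). Not all members went this way. Plxnd1, a semaphorin receptor also used by endothelium, fell (log2 fold change -3.33 ± 0.29), as did Lpl, the lipoprotein lipase (-1.09 ± 0.18). Rorb, the nuclear receptor of layer IV, was at 7.34 and 10.2 CPM in sorted cells, against 10.9 and 9.08 CPM in WT cortex, and its groups overlapped.

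Among 17 tested deep-layer genes, 3 were called higher and 10 lower, 5 of the lower ones past 2-fold, and the median was -0.67. Bcl11b, the transcription factor that marks subcerebral projection neurons, stood at 92.5 and 93.8 CPM in sorted cells, against 327 and 242 CPM in WT cortex (log2 fold change -1.61 ± 0.13, adjusted p = 1.0e-06). Fezf2, which specifies the same neurons, had 55 and 52.6 CPM in sorted cells, against 144 and 132 CPM in WT cortex (log2 fold change -1.36 ± 0.10, adjusted p = 5.2e-07). For both genes the sorted libraries lay below both cortex libraries. Zfpm2, a GATA cofactor of corticothalamic neurons, was at 6.79 and 7.66 CPM in sorted cells, against 33 and 33 CPM in WT cortex. Rprm, a p53-linked cell cycle arrest gene enriched in deep layers, was at 47 and 38.6 CPM in sorted cells, against 121 and 116 CPM in WT cortex. Foxp2, also a deep-layer marker, went the other way, at 24.6 and 32.9 CPM in sorted cells, against 22.1 and 22.9 CPM in WT cortex. It was not called (log2 fold change 0.35 ± 0.16, adjusted p = 0.069), but was called higher with GC offsets, at 0.63. Its log2 fold change was 0.56 without sorted library 1 and 0.12 without sorted library 2. Tbr1, the layer VI transcription factor, differed little, with 308 and 265 CPM in sorted cells, against 394 and 319 CPM in WT cortex (log2 fold change -0.32 ± 0.12, adjusted p = 0.036). Its call was lost without cortex library 1 (log2 fold change -0.17, adjusted p = 0.379) or without sorted library 2 (-0.22, adjusted p = 0.0955).

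Genes of newborn and migrating neurons were mostly higher in the sorted cells. Of 30 tested, 21 were called higher and 3 lower, beside 30.3% and 31.3% of all tested genes. The median was 0.61. Sema3c, a secreted semaphorin, was at 214 and 255 CPM in sorted cells, against 34.6 and 24.9 CPM in WT cortex (log2 fold change 2.97 ± 0.16, adjusted p = 3.4e-08). Basp1, a growth cone membrane protein, stood at 1485 and 1100 CPM in sorted cells, against 214 and 164 CPM in WT cortex (log2 fold change 2.77 ± 0.16, adjusted p = 6.0e-08). Tubb2a, a beta tubulin, had 272 and 246 CPM in sorted cells, against 82.4 and 78.6 CPM in WT cortex (log2 fold change 1.68 ± 0.10, adjusted p = 9.2e-08). In each of these the sorted libraries were the high ones and the groups were apart. The 3 genes that fell were Map1b and Ina, a microtubule-associated protein and an intermediate filament of growing axons, and Gap43, a growth cone phosphoprotein (log2 fold changes -1.30 ± 0.11, -1.52 ± 0.12 and -0.31 ± 0.10). Without sorted library 2, 5 of the list were called lower. The call of Gap43 was lost without cortex library 1, at -0.22, and with GC offsets, at -0.18.

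Of 36 tested axon guidance genes, 15 were called higher and 12 lower, beside 30.3% and 31.3% of all tested genes. Past 2-fold were 6 and 5, beside 7.67% and 8.37% of all. Robo2, a Slit receptor, was at 539 and 614 CPM in sorted cells, against 179 and 149.5 CPM in WT cortex (log2 fold change 1.81 ± 0.12, adjusted p = 1.8e-07). Its relative Robo3, which is known for commissural axons of the hindbrain and spinal cord, had 3 counts over both sorted libraries against 40.2 and 54.5 CPM in WT cortex. The ratio of cortex over sorted cells was 435 (95% exact counting interval 149 to 2110). The Slit ligands Slit1 and Slit3 also fell (log2 fold changes -2.08 ± 0.14 and -3.79 ± 0.44), while the adhesion molecules Cntn2 and Chl1 rose (1.73 ± 0.15 and 2.02 ± 0.21).

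**Figure D2:**
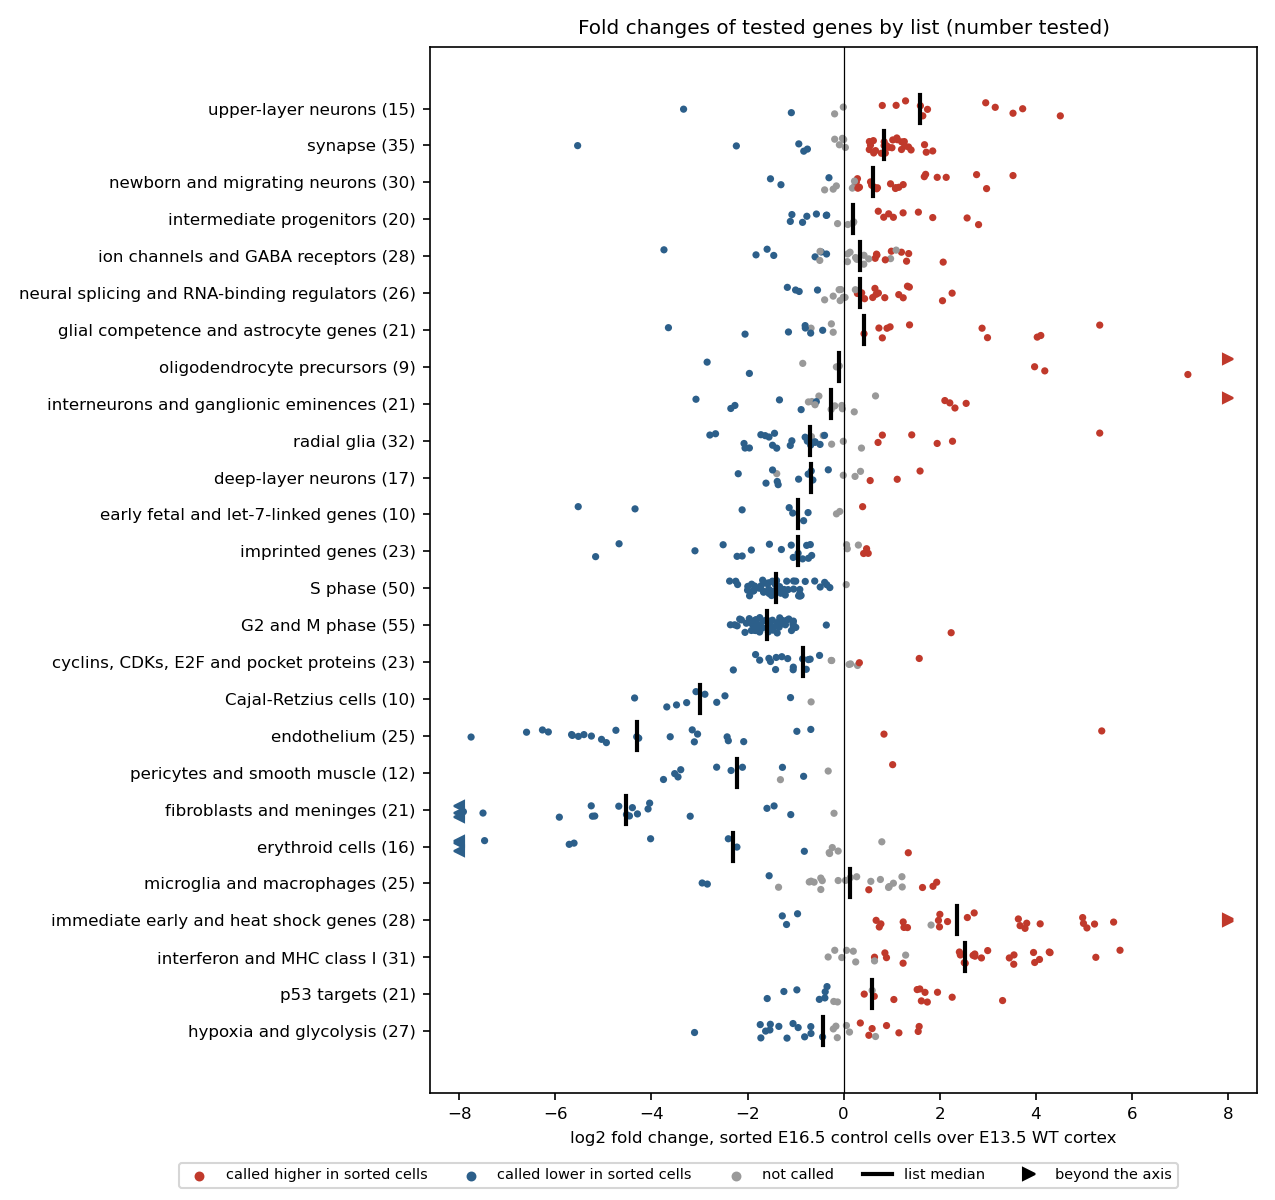
Log2 fold change of each tested gene, sorted E16.5 control cells over E13.5 WT cortex, by list; red points were called higher and blue points lower in the sorted cells, grey points were not called, and black bars are list medians. Arrowheads mark the 10 points beyond a log2 value of 8, whose fitted size depends on near-zero counts in one group; the S and G2/M lists lie almost wholly left of 0.

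Synapse genes were mostly higher in the sorted cells: 25 of 35 tested were called higher, 5 lower and 5 were not called. The median was 0.84. Rab3a, a GTPase of synaptic vesicles, stood at 186 and 171 CPM in sorted cells, against 53.3 and 44.9 CPM in WT cortex (log2 fold change 1.85 ± 0.11, adjusted p = 9.8e-08). Syn1, which tethers vesicles to the cytoskeleton, had 66.8 and 65.7 CPM in sorted cells, against 22.8 and 18.4 CPM in WT cortex (log2 fold change 1.68 ± 0.13, adjusted p = 5.9e-07). Gria2, the AMPA receptor subunit that blocks calcium entry, was at 834 and 1121 CPM in sorted cells, against 389 and 348 CPM in WT cortex. Among the members that fell, Sv2b, a vesicle glycoprotein, was at 0.469 and 0.487 CPM in sorted cells, against 24.1 and 20.5 CPM in WT cortex (log2 fold change -5.53 ± 0.27, adjusted p = 2.3e-08). Camk2a, the calcium-dependent kinase of mature synapses, was at 8.36 and 5.43 CPM in sorted cells, against 32.4 and 31.7 CPM in WT cortex (log2 fold change -2.23 ± 0.19, adjusted p = 1.1e-06). The groups were apart for all of these. The other members that fell were Syt1, Slc17a7 and Nlgn1, a calcium sensor of vesicles, a vesicular glutamate transporter and an adhesion molecule (log2 fold changes -0.93 ± 0.14, -0.75 ± 0.15 and -0.83 ± 0.15).

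Of 28 tested ion channel and GABA receptor genes, 9 were called higher and 7 lower, beside 30.3% and 31.3% of all tested genes. Scn3a, the sodium channel of embryonic neurons, was at 130.5 and 143 CPM in sorted cells, against 32.2 and 32.6 CPM in WT cortex (log2 fold change 2.07 ± 0.11, adjusted p = 3.3e-08). Kcnq3, a subunit of the M-type potassium channel, rose as well (log2 fold change 1.35 ± 0.16). The list median, 0.35, was 0.04 without cortex library 2 and 0.55 with GC offsets. The calls were 13 higher and 5 lower with GC offsets, 8 and 4 without cortex library 2, and 10 and 3 without cortex library 1.

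Regulators of neural splicing and RNA binding were higher in 14 and lower in 4 of 26 tested genes. Srrm3, which promotes neuronal microexons, had 53.8 and 58.2 CPM in sorted cells, against 13.2 and 10.2 CPM in WT cortex (log2 fold change 2.26 ± 0.15, adjusted p = 1.6e-07). Rbfox1, a splicing factor of maturing neurons, was at 116 and 129 CPM in sorted cells, against 36.5 and 22.3 CPM in WT cortex (log2 fold change 2.06 ± 0.18, adjusted p = 1.7e-06). Qk, the quaking RNA-binding protein of neural progenitors and glia, was lower, at 224 and 245 CPM in sorted cells, against 541 and 509.6 CPM in WT cortex (log2 fold change -1.17 ± 0.10, adjusted p = 1.5e-06). The BAF chromatin remodeller exchanges subunits when cells leave the cycle. Its neuronal subunits Actl6b and Ss18l1 rose (log2 fold changes 1.42 ± 0.13 and 1.15 ± 0.11). The progenitor subunits Actl6a and Ss18 fell (-0.47 ± 0.11 and -0.62 ± 0.10), while Phf10, Dpf1 and Dpf3 were not called.

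Radial glia genes were mostly lower in the sorted cells. Of 32 tested, 21 were called lower and 6 higher, 9 and 4 of them past 2-fold. Over all tested genes 31.3% were called lower and 30.3% higher. The median was -0.70. Nes, the intermediate filament nestin, was at 136 and 117 CPM in sorted cells, against 773 and 824 CPM in WT cortex (log2 fold change -2.67 ± 0.11, adjusted p = 6.2e-09). Id4, an inhibitor of proneural factors, stood at 49.9 and 45.5 CPM in sorted cells, against 340.4 and 313 CPM in WT cortex (log2 fold change -2.78 ± 0.11, adjusted p = 3.7e-09). Ttyh1, a membrane protein of radial glia, had 67.9 and 72.9 CPM in sorted cells, against 288 and 293 CPM in WT cortex (log2 fold change -2.05 ± 0.10, adjusted p = 2.6e-08). In each of these the cortex libraries were the high ones and the groups were apart. The transcription factors that define the type changed less. Pax6 was at 170.1 and 191 CPM in sorted cells, against 241 and 264 CPM in WT cortex (log2 fold change -0.49 ± 0.11, adjusted p = 0.0017). Sox2 was at 159 and 103 CPM in sorted cells, against 205 and 188 CPM in WT cortex (log2 fold change -0.59 ± 0.16, adjusted p = 0.0060), with a log2 fold change of -0.92 without sorted library 1 and -0.31 without sorted library 2. Fabp7, a fatty acid binding protein of radial glia, was at 242 and 259 CPM in sorted cells, against 262 and 239.7 CPM in WT cortex, so that the groups overlapped.

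Tnc, an extracellular matrix glycoprotein of outer radial glia and astrocyte precursors, went the other way, with 209.7 and 203 CPM in sorted cells, against 6.03 and 4.26 CPM in WT cortex (log2 fold change 5.33 ± 0.16, adjusted p = 5.4e-10). Other genes of astrocytes and of the switch to gliogenesis rose with it. Bcan, a brain proteoglycan, was at 47.3 and 46.5 CPM in sorted cells, against 3.61 and 2.17 CPM in WT cortex (log2 fold change 4.03 ± 0.21). Aldh1l1, a folate enzyme that marks astrocytes, was at 13 and 11.3 CPM in sorted cells, against 0.636 and 0.758 CPM in WT cortex (log2 fold change 4.10 ± 0.28). Zbtb20 and Nfix, transcription factors tied to late progenitors and glia, rose by log2 values of 2.88 ± 0.19 and 1.37 ± 0.11. Gja1, the gap junction protein connexin 43, fell by contrast, at 6.87 and 6.55 CPM in sorted cells, against 80 and 87.2 CPM in WT cortex (log2 fold change -3.65 ± 0.14, adjusted p = 2.9e-09). Genes of mature astrocytes were low in all libraries. Gfap was at 1.01 and 0.905 CPM in sorted cells, against 0.152 and 0.0843 CPM in WT cortex. Aqp4 was at 1.25 and 0.836 CPM in sorted cells, against 1.88 and 1.43 CPM in WT cortex. Of the 21 tested genes of this list, 11 were called higher and 7 lower, beside 30.3% and 31.3% of all tested genes. Its median of 0.42 was 0.08 without sorted library 1, 0.18 without sorted library 2, 0.25 without cortex library 2, 0.16 with GC offsets and 0.10 with a minimum of 1 CPM in at least 2 libraries.

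Of 9 tested genes of oligodendrocyte precursors, 4 were called higher and 2 lower, beside 30.3% and 31.3% of all tested genes. Olig2, a transcription factor of ventral and late dorsal progenitors, was at 18.4 and 21.6 CPM in sorted cells, against 1.5 and 1.05 CPM in WT cortex (log2 fold change 3.97 ± 0.24, adjusted p = 8.7e-08). Its neighbour Olig1 had 21.9 and 22.8 CPM in sorted cells, against 0 and 0.126 CPM in WT cortex (log2 fold change 8.25 ± 0.42, adjusted p = 2.6e-08). Egfr, the epidermal growth factor receptor, had 20 and 20.8 CPM in sorted cells, against 1.25 and 0.99 CPM in WT cortex (log2 fold change 4.18 ± 0.22, adjusted p = 3.8e-08). Sox10, a factor of the committed lineage, had 17 counts in the sorted cells and 0 in the WT cortex, at least 18.1-fold higher against a floor of 3 counts over both cortex libraries. The genes called lower were Pcdh15, a protocadherin, at 1.09 and 1.11 CPM in sorted cells, against 4.4 and 4.19 CPM in WT cortex (log2 fold change -1.96 ± 0.33, adjusted p = 0.00028), and the low-count gene Lhfpl3. Lhfpl3 was at 0.156 and 0.139 CPM in sorted cells, against 1.17 and 0.99 CPM in WT cortex (log2 fold change -2.84 ± 0.66, adjusted p = 0.0028). Both passed 2-fold. Pdgfra, the receptor that marks the precursors themselves, was at 4.84 and 6.69 CPM in sorted cells, against 6.3 and 6.49 CPM in WT cortex, with overlapping groups.

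Intermediate progenitor genes moved in both directions: 9 of 20 were called higher, 7 lower and 4 were not called. Over all tested genes the shares called were 30.3% higher and 31.3% lower. Insm1, a zinc finger factor of delaminating progenitors, had 703 and 617 CPM in sorted cells, against 109 and 79.1 CPM in WT cortex (log2 fold change 2.81 ± 0.15, adjusted p = 3.3e-08). Hes6, a proneural antagonist of Hes1, was at 187 and 157 CPM in sorted cells, against 61.4 and 55.2 CPM in WT cortex (log2 fold change 1.55 ± 0.11, adjusted p = 3.7e-07). Smoc1 and Lzts1, a matrix protein and a regulator of delamination, rose too (2.57 ± 0.21 and 1.24 ± 0.11). Neurog2, the proneural factor, was at 152 and 242 CPM in sorted cells, against 229 and 201 CPM in WT cortex, and the groups overlapped. It was called lower without sorted library 2 and with GC offsets, at -0.51 in both.

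Notch signalling holds progenitors undifferentiated, with ligands on one cell and receptors on the next. Of 22 tested genes, 6 were called higher and 9 lower, beside 30.3% and 31.3% of all tested genes. Among receptors, Notch3 was at 24.9 and 18.2 CPM in sorted cells, against 104 and 113 CPM in WT cortex (log2 fold change -2.34 ± 0.14, adjusted p = 9.0e-08). Notch2 was at 87.2 and 72.9 CPM in sorted cells, against 205 and 189 CPM in WT cortex (-1.31 ± 0.11, adjusted p = 1.2e-06). Notch1 fell as well (-0.40 ± 0.10). Notch3 is also a gene of pericytes, whose markers moved the same way, and their part in its value was not tested. The nuclear effectors Rbpj and Hey1 also fell (log2 fold changes -1.55 ± 0.12 and -1.66 ± 0.15). Of the ligands, Dll1 fell (-0.57 ± 0.10) and Dll3 and Jag2 rose (1.85 ± 0.19 and 1.62 ± 0.18). In the Wnt pathway, 6 of 17 tested genes were called higher and 8 lower. Among them the transcription factors Tcf7l1 and Lef1 fell. Tcf7l1 was at 9.14 and 7.17 CPM in sorted cells, against 64.9 and 62.4 CPM in WT cortex. Lef1 was at 2.34 and 1.88 CPM in sorted cells, against 23.2 and 28.1 CPM in WT cortex. The ligand Wnt7a also fell (-1.63 ± 0.15), and the receptor Fzd5 rose (3.70 ± 0.35).

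Area patterning factors of the cortex split by gene. Fgfr3, a growth factor receptor graded along the cortex, was at 62.1 and 55.4 CPM in sorted cells, against 262 and 247 CPM in WT cortex (log2 fold change -2.12 ± 0.11, adjusted p = 2.5e-08). The transcription factors Dmrta1 and Dmrt3, graded toward the medial cortex, fell (log2 fold changes -3.01 ± 0.18 and -3.96 ± 0.28). Cdh8, a cadherin of frontal and motor areas, was at 183 and 177 CPM in sorted cells, against 37.4 and 28.5 CPM in WT cortex (log2 fold change 2.45 ± 0.13, adjusted p = 3.7e-08). The list median of 0.89 was 0.12 with GC offsets.

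Cell cycle genes fell nearly as a whole. Genes of DNA replication were called lower in the sorted cells in 49 of 50 tested, 30 of them past 2-fold, and the median was -1.41. Cdt1, the licensing factor, was the exception, not called at 53.7 and 44.6 CPM in sorted cells, against 43.3 and 50.9 CPM in WT cortex; with GC offsets it was called lower, at -0.35. Genes of G2 and mitosis were called lower in 54 of 55, 44 past 2-fold, with a median of -1.60. With GC offsets these medians were -1.21 and -1.45. Hells, a chromatin remodeller of replicating cells, had 41.4 and 46.1 CPM in sorted cells, against 182 and 220.2 CPM in WT cortex (log2 fold change -2.21 ± 0.13, adjusted p = 5.7e-08). Its groups were apart, with the sorted libraries low. In mitosis, Knl1, a kinetochore scaffold, was at 32.1 and 30.6 CPM in sorted cells, against 151 and 168 CPM in WT cortex (log2 fold change -2.36 ± 0.11, adjusted p = 1.7e-08). Ncapg, a condensin subunit, stood at 33.7 and 36.1 CPM in sorted cells, against 138 and 151 CPM in WT cortex (log2 fold change -2.05 ± 0.11, adjusted p = 4.3e-08). Kif11, the kinesin that separates spindle poles, stood at 84.2 and 102 CPM in sorted cells, against 407 and 457 CPM in WT cortex (log2 fold change -2.21 ± 0.12, adjusted p = 5.2e-08). The sorted libraries were the low ones throughout. Pttg1, which encodes securin, alone rose in this list, at 32.3 and 34.2 CPM in sorted cells, against 6.18 and 7.84 CPM in WT cortex (log2 fold change 2.24 ± 0.17, adjusted p = 4.2e-07).

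**Figure D3:**
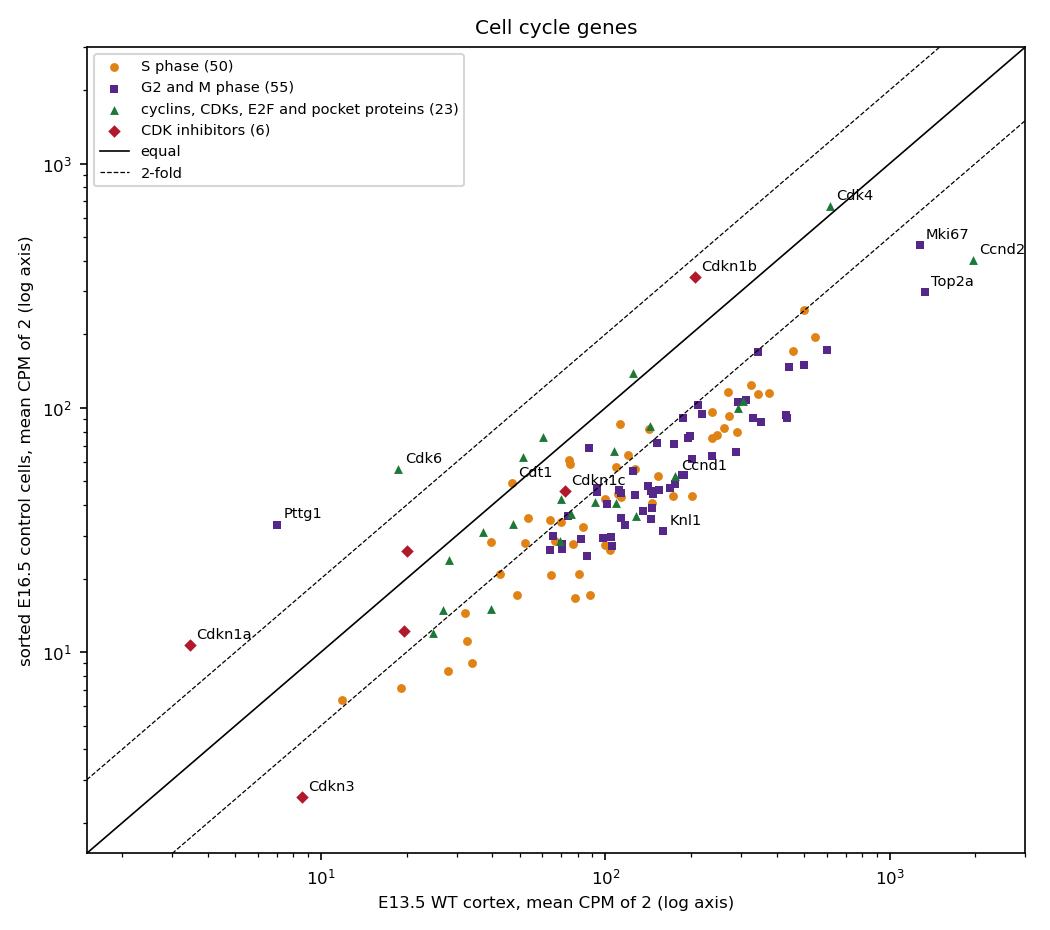
Mean CPM of the 2 sorted E16.5 libraries (vertical, log axis) against that of the 2 WT E13.5 cortex libraries (horizontal, log axis) for tested cell cycle genes, with lines of equality and of a 2-fold difference. Replication and mitosis genes lie below the line of equality except Cdt1 and Pttg1, while Cdkn1b, Cdkn1a and Cdk6 lie above it.

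The promoters of 2 mitotic genes and 2 synapse genes are shown because these lists differ in direction as a whole. Sv2b, one of the synapse genes with the smallest p, fell, and so moved with the mitotic genes and against most of its list. Those of Fos and Fosb are shown because of their values given below. Each is the 250 bases before the transcript start in the RefSeq promoter table (GRCm38.p6), 5′ to 3′ on the strand of the gene, with motif matches on either strand in capitals. As RefSeq genes, Ncapg and Fosb begin upstream of that start, at base 45669891 of chromosome 5 and base 19310118 of chromosome 7. The ends of both windows thus lie inside the annotated gene. The motifs searched were TTTGAA (the CHR element of cell cycle genes), CCAAT (bound by the factor NF-Y), TGACG (the core of the cyclic AMP response element), TATAAA (the TATA box) and a single spelling of the CArG box (bound by serum response factor). The windows are chr2:119046869-119047118 (plus strand) for Knl1, chr5:45669675-45669924 (plus) for Ncapg, chr8:70754453-70754702 (plus) for Rab3a, chr7:75309263-75309512 (minus) for Sv2b, chr12:85473640-85473889 (plus) for Fos and chr7:19310046-19310295 (minus) for Fosb; Rab3a and Sv2b have further starts in the table.
Knl1: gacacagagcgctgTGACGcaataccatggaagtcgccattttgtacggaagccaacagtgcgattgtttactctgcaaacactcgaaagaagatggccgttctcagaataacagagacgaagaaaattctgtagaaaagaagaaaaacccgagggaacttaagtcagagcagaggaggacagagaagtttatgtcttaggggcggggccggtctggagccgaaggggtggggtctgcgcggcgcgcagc
Ncapg: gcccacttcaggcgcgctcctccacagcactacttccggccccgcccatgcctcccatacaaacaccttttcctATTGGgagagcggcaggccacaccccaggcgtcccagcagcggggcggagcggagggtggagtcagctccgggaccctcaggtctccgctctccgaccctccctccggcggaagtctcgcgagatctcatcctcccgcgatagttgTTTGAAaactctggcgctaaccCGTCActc
Rab3a: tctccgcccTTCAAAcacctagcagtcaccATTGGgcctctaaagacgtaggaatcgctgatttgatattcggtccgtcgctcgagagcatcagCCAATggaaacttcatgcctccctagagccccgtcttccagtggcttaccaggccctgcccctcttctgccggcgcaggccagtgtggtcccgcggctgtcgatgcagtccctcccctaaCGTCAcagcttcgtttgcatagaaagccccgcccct
Sv2b: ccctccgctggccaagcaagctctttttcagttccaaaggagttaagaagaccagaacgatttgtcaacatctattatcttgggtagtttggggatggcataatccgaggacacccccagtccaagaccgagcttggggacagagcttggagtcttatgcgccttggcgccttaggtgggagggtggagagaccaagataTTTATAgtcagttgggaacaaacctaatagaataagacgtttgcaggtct
Fos: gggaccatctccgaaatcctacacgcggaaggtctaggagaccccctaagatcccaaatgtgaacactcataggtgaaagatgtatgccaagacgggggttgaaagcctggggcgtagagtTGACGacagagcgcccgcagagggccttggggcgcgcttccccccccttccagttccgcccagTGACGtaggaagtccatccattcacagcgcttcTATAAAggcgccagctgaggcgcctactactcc
Fosb: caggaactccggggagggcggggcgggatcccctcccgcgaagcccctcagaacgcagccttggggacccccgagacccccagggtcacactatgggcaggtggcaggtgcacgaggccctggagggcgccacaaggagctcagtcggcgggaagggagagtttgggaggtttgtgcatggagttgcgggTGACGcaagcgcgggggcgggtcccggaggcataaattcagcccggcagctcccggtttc

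CCAAT stood in the window of 34 of 47 G2 and mitosis genes with an entry (72.3%), 23 of 38 replication genes (60.5%) and 5 of 23 synapse genes (21.7%), against 37.5% of all 27025 genes in the table. TTTGAA stood in 14 of the 47 (29.8%), 4 of the 38 (10.5%) and 3 of the 23 (13%), against 18.3% of all. TGACG was held by 12 of 23 immediate early and heat shock genes (52.2%), 13 of the 38 replication genes (34.2%), 7 of the 23 synapse genes (30.4%) and 11 of the 47 G2 and mitosis genes (23.4%), against 19.8% of all. TATAAA was held by 8.7% of both the immediate early and the synapse genes, 7.89% of replication genes and 2.13% of G2 and mitosis genes, against 14.3% of all. That spelling of the CArG box was in 0 of the 23 immediate early and heat shock genes and in 1 of the 47 G2 and mitosis genes, against 0.074% of all. Immediate early genes held CCAAT in 43.5% and TTTGAA in 4.35%. Of the windows shown, those of Ncapg and Rab3a hold CCAAT and TTTGAA on one or the other strand, while Knl1, Sv2b, Fos and Fosb hold neither. TGACG stands in all of them other than Sv2b, and TATAAA in Fos and Sv2b. The TTTGAA and TGACG matches of Ncapg and the TGACG match of Fosb lie in the part inside the annotated gene. These are matches of letters, not sites.

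Cyclins, their kinases, E2F factors and pocket proteins were called lower in 16 of 23 and higher in 2. Ccnd2, the D-type cyclin of cortical progenitors, was at 384 and 419.8 CPM in sorted cells, against 1917 and 2011 CPM in WT cortex (log2 fold change -2.29 ± 0.11, adjusted p = 1.6e-08). Ccnd1 stood at 53 and 52 CPM in sorted cells, against 162 and 189.6 CPM in WT cortex (log2 fold change -1.75 ± 0.11, adjusted p = 1.5e-07). Ccnd3, the remaining D-type cyclin, was not called, with 23.8 and 23.8 CPM in sorted cells, against 26.5 and 29.8 CPM in WT cortex; with GC offsets it was called lower, at -0.65. Ccne1 and Ccne2, the cyclins of S phase entry, fell by less (-0.85 ± 0.16 and -1.05 ± 0.21). Cdk6, a kinase partner of D-type cyclins, rose, at 72.6 and 39.8 CPM in sorted cells, against 17.8 and 19.6 CPM in WT cortex (log2 fold change 1.57 ± 0.21, adjusted p = 4.9e-05). The related Cdk4 was not called, with 668 and 672 CPM in sorted cells, against 581 and 652 CPM in WT cortex.

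The inhibitors of cyclin-dependent kinases did not move as one. Cdkn1b, which encodes p27, was at 319 and 367 CPM in sorted cells, against 222 and 190.0 CPM in WT cortex (log2 fold change 0.73 ± 0.11, adjusted p = 0.00017). Cdkn1a, the gene of p21, stood at 11 and 10.3 CPM in sorted cells, against 3.76 and 3.16 CPM in WT cortex (log2 fold change 1.62 ± 0.22, adjusted p = 5.9e-05). For both, the sorted libraries were the high ones. Cdkn1c, which encodes p57, was lower, at 44.8 and 46.4 CPM in sorted cells, against 79.3 and 64.8 CPM in WT cortex (log2 fold change -0.67 ± 0.12, adjusted p = 0.00056). Cdkn2c fell (log2 fold change -0.68 ± 0.16, adjusted p = 0.0027). Cdkn2d rose (0.37 ± 0.14, adjusted p = 0.037), but its direction turned with GC offsets, at -0.03, and its call was lost without cortex library 1 (0.46, adjusted p = 0.087) or 2 (0.27, adjusted p = 0.33). The call was also lost with upper-quartile scaling (adjusted p = 0.0585), no filter (0.0525), thinned counts (0.0506) and DESeq2 (0.0695), at log2 fold changes of 0.33 to 0.38. Cdkn3, a phosphatase that peaks in dividing cells, fell (-1.74 ± 0.26, adjusted p = 0.00012). On the FPKM scale, which divides by gene length so that levels of different genes can be compared, Cdkn1b was the most abundant of these in every library, at 133 and 152 FPKM in the sorted cells and 92.5 and 79 FPKM in the WT cortex. Lockd, the subject of the series, lies next to Cdkn1b on chromosome 6 (134929092 to 134951718, GRCm38). It was at 8.9 and 7.8 CPM in sorted cells, against 22.1 and 24 CPM in WT cortex (log2 fold change -1.47 ± 0.17, adjusted p = 1.1e-05), so the neighbours went opposite ways. The strand setting of the counting is not stated in the labels, so reads of overlapping or antisense genes could not be separated.

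Genes of the early fetal programme were mostly lower in the sorted cells. Hmga2, a chromatin protein of early neural stem cells, was at 4.92 and 3 CPM in sorted cells, against 158 and 200.4 CPM in WT cortex (log2 fold change -5.52 ± 0.20, adjusted p = 2.3e-09). Lin28b, which blocks maturation of let-7 microRNAs, had 0.469 and 0.418 CPM in sorted cells, against 8.62 and 9.38 CPM in WT cortex (log2 fold change -4.34 ± 0.33, adjusted p = 5.3e-07). Igf2bp2, an RNA-binding protein and let-7 target, had 52.3 and 54 CPM in sorted cells, against 229.7 and 228 CPM in WT cortex (log2 fold change -2.11 ± 0.10, adjusted p = 1.9e-08). In all of these the WT cortex libraries were high. Of 10 tested genes of the list, 7 were called lower and 1 higher. Imprinted genes, which are expressed from one parental allele, were called lower in 17 of 23 and higher in 3. Igf2, the fetal growth factor, was at 2.97 and 1.11 CPM in sorted cells, against 72 and 70.5 CPM in WT cortex (log2 fold change -5.16 ± 0.24, adjusted p = 1.7e-08). Grb10, a growth inhibitor, was at 211 and 238 CPM in sorted cells, against 809 and 884 CPM in WT cortex (log2 fold change -1.92 ± 0.11, adjusted p = 6.6e-08). Igf2 is also abundant in meninges and vessels, whose markers moved the same way; their part in its value was not tested.

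Host transcripts of microRNAs were measured, while the mature microRNAs were not. Of 8 tested hosts, 4 were called higher and 2 lower, beside 30.3% and 31.3% of all tested genes. Mature sequences from inside 3 of the called hosts, Mir9-3hg, Mir100hg and Mir22hg, are shown in RNA letters, 5′ to 3′, from RefSeq (GRCm38.p6, plus strand for all), with the seed, bases 2 to 8, in capitals.
miR-9-5p: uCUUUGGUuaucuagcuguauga
miR-100-5p: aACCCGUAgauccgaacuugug
miR-125b-5p: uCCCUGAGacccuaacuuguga
miR-22-3p: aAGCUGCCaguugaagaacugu

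Of the sequences shown, no 2 share a seed. Mir9-3hg (miR-9, chr7:79505279-79505301) was lower, at 129.5 and 157 CPM in sorted cells, against 208 and 212 CPM in WT cortex (log2 fold change -0.55 ± 0.11, adjusted p = 0.0011). Mirg, a host in an imprinted cluster on chromosome 12, was lower too, at 0.625 and 0.487 CPM in sorted cells, against 2.36 and 2.42 CPM in WT cortex (log2 fold change -2.11 ± 0.43, adjusted p = 0.0012), and passed 2-fold. Mir100hg holds both miR-100 (chr9:41531437-41531458) and miR-125b (chr9:41581940-41581961), and was higher but scarce, at 0.937 and 1.39 CPM in sorted cells, against 0.127 and 0.232 CPM in WT cortex (log2 fold change 2.65 ± 0.60, adjusted p = 0.0023). Mir22hg (miR-22, chr11:75463772-75463793) was also higher (1.51 ± 0.36, adjusted p = 0.0035). Mir124a-1hg, the host of a neuronal microRNA, was at 115 and 129 CPM in sorted cells, against 89.6 and 70.5 CPM in WT cortex (log2 fold change 0.60 ± 0.13, adjusted p = 0.0012). Mir99ahg, at 10.1 and 16.2 CPM in sorted cells, against 6.28 and 6.11 CPM in WT cortex, rose too (1.09 ± 0.23, adjusted p = 0.0016), with a log2 fold change of 0.69 without sorted library 2.

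Cajal-Retzius cells, the early-born neurons of the cortical surface that secrete reelin, were represented by 10 tested genes, of which 9 were called lower, 8 past 2-fold, and Ndnf was not called. Reln was at 47.1 and 24.6 CPM in sorted cells, against 246 and 279 CPM in WT cortex (log2 fold change -2.89 ± 0.22, adjusted p = 4.2e-07). Ebf2, a transcription factor of these cells, was at 0.703 and 0.557 CPM in sorted cells, against 10.9 and 14.7 CPM in WT cortex (log2 fold change -4.35 ± 0.32, adjusted p = 3.7e-07). Trp73, which marks those from the cortical hem, had 1.41 and 0.557 CPM in sorted cells, against 9.71 and 14.9 CPM in WT cortex (log2 fold change -3.68 ± 0.37, adjusted p = 4.3e-06). Lhx9, known in the diencephalon and early pallium, was close to its floor in one group, at 0.234 and 0.418 CPM in sorted cells, against 37.8 and 38 CPM in WT cortex (log2 fold change -6.83 ± 0.26, adjusted p = 2.9e-09).

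Most vessel, meningeal and blood genes were lower in the sorted cells, many of them near 0. Of 25 tested endothelial genes, 23 were called lower and 2 higher. The median was -4.30, and -4.26 with genes at 0 counts in a group set to their bound. Pecam1, an adhesion molecule of endothelium, was at 0.859 and 0.418 CPM in sorted cells, against 25 and 22.8 CPM in WT cortex (log2 fold change -5.25 ± 0.28, adjusted p = 3.5e-08). Cdh5, its junctional cadherin, was at 0.469 and 0.139 CPM in sorted cells, against 21.5 and 20.7 CPM in WT cortex (log2 fold change -6.14 ± 0.33, adjusted p = 3.7e-08). The 2 genes that rose are transporters. Slco1c1 was at 18.2 and 18.2 CPM in sorted cells, against 0.254 and 0.59 CPM in WT cortex (log2 fold change 5.37 ± 0.31, adjusted p = 6.5e-08). Mfsd2a was at 36.9 and 34.8 CPM in sorted cells, against 21.8 and 18.1 CPM in WT cortex (log2 fold change 0.84 ± 0.14, adjusted p = 0.00024). Summed over the endothelial list, the sorted cells had 108 and 103 CPM, against 285 and 280.4 CPM in WT cortex. Pericyte and smooth muscle genes were called lower in 9 of 12 and higher in 1, with a median of -2.22. Their list summed to 79 and 76.7 CPM in sorted cells, against 232 and 237 CPM in WT cortex.

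Fibroblast and meningeal genes were lower in 20 of 21 and higher in none by edgeR. The median was -4.52, and -4.40 with genes at 0 counts in a group set to their bound. Col3a1, a fibrillar collagen, had 0.547 and 0 CPM in sorted cells, against 90.8 and 101 CPM in WT cortex. Dcn, the proteoglycan decorin, had 0 counts in both sorted libraries against 10.6 and 10.8 CPM in the WT cortex, at least 96.9-fold lower against a floor of 3 counts over the group. Summed over the list, the sorted cells had 185 and 166 CPM, against 709 and 786 CPM in WT cortex. Fn1, the fibronectin gene, made up most of the sum in the sorted cells, at 163 and 144 CPM.

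Of 16 tested erythroid genes, 10 were called lower and 1 higher. The median was -2.31, and -1.504 without sorted library 1. Hbb-y, an embryonic beta-type globin, had 0 counts in both sorted libraries against 214 and 233 CPM in the WT cortex, at least 2032-fold lower against the floor over the group. Hba-x, the embryonic zeta globin, had 1 count in the sorted cells against 49.3 and 66.8 CPM in the WT cortex, a ratio of cortex over sorted cells of 1599 (95% exact counting interval 287 to 63150). The adult-type alpha globin Hba-a1 was at 3.9 and 3.97 CPM in sorted cells, against 61.5 and 65.5 CPM in WT cortex (log2 fold change -4.02 ± 0.15, adjusted p = 2.9e-09); it has a near-identical copy, so its count is uncertain. Intervals and floors cover counting error only.

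The summed level of microglial genes differed more between the sorted libraries than between the group means. It was 93.2 and 39.1 CPM in sorted libraries 1 and 2, against 65.3 and 62.7 CPM in the WT cortex. Csf1r, the receptor that microglia need, was at 9.29 and 1.53 CPM in sorted cells, against 7.09 and 7.61 CPM in WT cortex. C1qa, a complement gene, was at 6.48 and 1.32 CPM in sorted cells, against 2.19 and 1.14 CPM in WT cortex. For both, sorted library 1 was high and sorted library 2 low, and neither was called. Of 25 tested genes, 4 were called higher and 3 lower; without sorted library 1 the counts were 1 and 10, and without sorted library 2 they were 11 and 1. Mrc1, a receptor of macrophages at brain borders, was lower in both sorted libraries, at 1.56 and 0.139 CPM in sorted cells, against 5.39 and 6.3 CPM in WT cortex (log2 fold change -2.84 ± 0.53, adjusted p = 0.00058). Without sorted library 1 its log2 fold change was -5.34, and DESeq2 gave an adjusted p of 0.0622. Aif1 and Tmem119, also microglial genes, were among the 4 called higher. Aif1 was at 1.41 and 1.04 CPM in sorted cells, against 0.28 and 0.379 CPM in WT cortex (log2 fold change 1.86 ± 0.53, adjusted p = 0.0094). Tmem119 was at 2.27 and 1.11 CPM in sorted cells, against 0.559 and 0.506 CPM in WT cortex (1.64 ± 0.50, adjusted p = 0.013). With GC offsets Tmem119 was not called, at 0.86. Both genes rest on few counts: 33 in the sorted cells and 29 in the WT cortex for Aif1, and 45 and 46 for Tmem119. The calls of both were lost without sorted library 1, cortex library 1 or cortex library 2. Log2 fold changes were then 1.66, 1.66 and 2.09 for Aif1, and 1.07, 1.70 and 1.56 for Tmem119.

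Interneuron genes, which mark cells that enter the cortex from the ganglionic eminences, were scarce in both groups, with summed levels of 192 and 159 CPM in the sorted cells and 195 and 166 CPM in the WT cortex. Gad1 and Gad2, the enzymes of GABA synthesis, were not called. Gad1 was at 4.45 and 2.72 CPM in sorted cells, against 5.82 and 2.72 CPM in WT cortex. Gad2 was at 5.39 and 6.2 CPM in sorted cells, against 7.73 and 4.19 CPM in WT cortex. The chemokine receptors Cxcr4 and Ackr3 fell (log2 fold changes -2.35 ± 0.23 and -2.26 ± 0.21).

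Immediate early genes, which cells switch on within minutes of a stimulus, included some of the steepest rises. Fos was at 258 and 304 CPM in sorted cells, against 0.305 and 0.211 CPM in WT cortex (log2 fold change 10.08 ± 0.20, adjusted p = 2.7e-11). Fosb, whose promoter window is given above with that of Fos, stood at 212 and 317 CPM in sorted cells, against 0.0508 and 0.0421 CPM in WT cortex (log2 fold change 12.35 ± 0.33, adjusted p = 2.8e-10). Both were close to 0 in both cortex libraries and above 200 CPM in both sorted libraries. Jund, a partner of Fos in the AP-1 factor, had 984 and 718 CPM in sorted cells, against 31.7 and 21.7 CPM in WT cortex (log2 fold change 4.99 ± 0.20, adjusted p = 4.2e-09). Egr1, a zinc finger factor of the same response, had 61.1 and 57.9 CPM in sorted cells, against 2.24 and 1.56 CPM in WT cortex (log2 fold change 4.97 ± 0.18, adjusted p = 2.3e-09). Jund has a transcript rich in GC, and its log2 fold change with GC offsets was 4.21. Over the list of immediate early and heat shock genes, 24 of 28 tested were called higher, 18 of them past 2-fold. The median was 2.37. The 3 that fell were chaperones, Hspa8, Hsp90aa1 and Hsph1 (log2 fold changes -1.28 ± 0.13, -1.19 ± 0.12 and -0.96 ± 0.10). Dissociation and sorting were applied to the sorted cells only, so their part in these values cannot be told apart from stage or strain.

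Genes of interferon response and MHC class I were called higher in 23 of 31 and lower in none by edgeR. The median was 2.53. H2-D1, a class I heavy chain, was at 154 and 124 CPM in sorted cells, against 9.18 and 8.37 CPM in WT cortex (log2 fold change 3.98 ± 0.14, adjusted p = 1.6e-09). B2m, the light chain, was at 77.5 and 70.3 CPM in sorted cells, against 12.9 and 14.8 CPM in WT cortex (log2 fold change 2.41 ± 0.13, adjusted p = 3.7e-08). Usp18, an interferon-induced protease, had 8.51 and 6.76 CPM in sorted cells, against 0.178 and 0.211 CPM in WT cortex (log2 fold change 5.25 ± 0.39, adjusted p = 4.2e-07). Sorted library 1, the one with more microglial RNA, was above sorted library 2 for interferon genes such as Isg15, at 4.76 and 1.32 CPM in sorted cells, against 0.585 and 0.464 CPM in WT cortex. The call of Isg15 was lost without sorted library 1 (log2 fold change 1.35, adjusted p = 0.0942). The part of microglial RNA in the list was not tested. Without sorted library 1 the median was 1.66 with 17 called higher, and without sorted library 2 it was 3.23 with 28. Class I genes such as H2-D1 are alike in sequence and differ between strains, so their counts are uncertain.

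**Figure D4:**
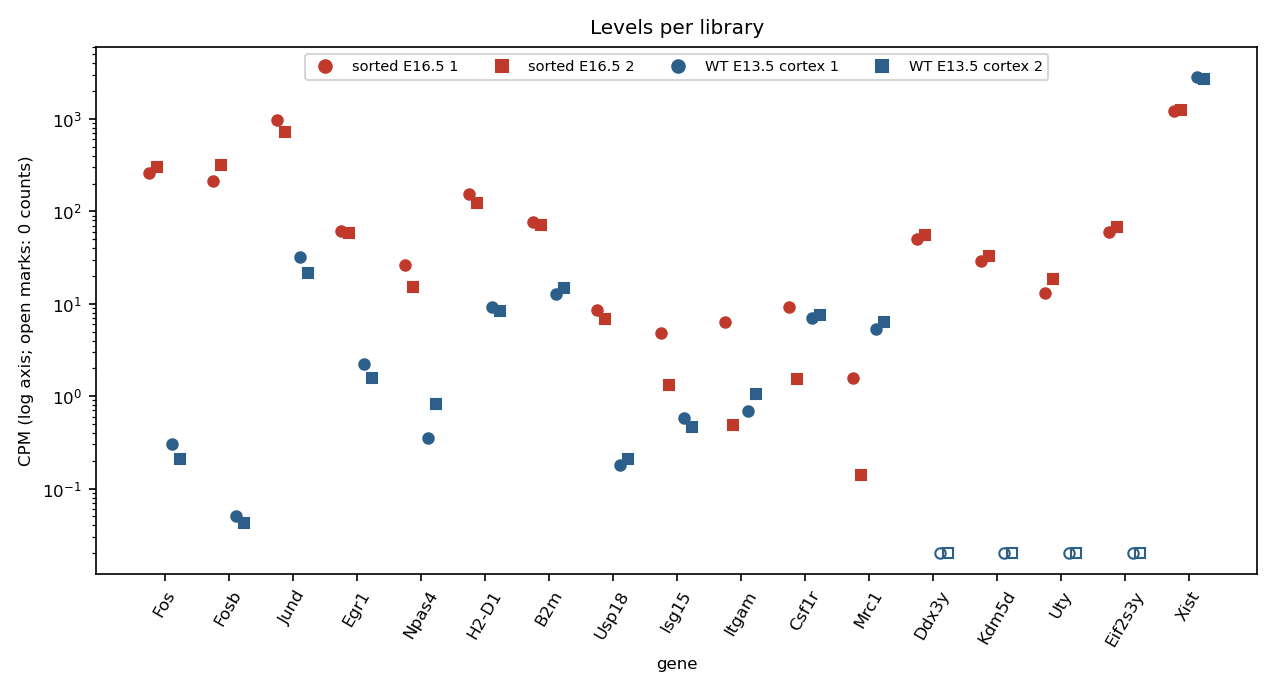
CPM per library on a log axis for immediate early, interferon, microglial and sex-linked genes, with sorted E16.5 libraries in red at the left of each gene and WT E13.5 cortex libraries in blue at the right; open marks at the bottom are 0 counts. Immediate early genes and the Y-linked genes are separated by group, and microglial genes differ between sorted libraries 1 and 2.

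Among p53 targets, 11 of 21 were called higher and 7 lower; 4 were lower without cortex library 1 and likewise without cortex library 2. Plk2, a polo-like kinase also induced by neuronal activity, was at 132 and 156 CPM in sorted cells, against 33.5 and 26.6 CPM in WT cortex (log2 fold change 2.26 ± 0.14, adjusted p = 9.0e-08). Bbc3, the cell death gene that encodes Puma, had 20 and 13.4 CPM in sorted cells, against 1.2 and 2.11 CPM in WT cortex (log2 fold change 3.31 ± 0.29, adjusted p = 1.7e-06). Bax, which permeabilises mitochondria in cell death, had 87.5 and 75.8 CPM in sorted cells, against 40 and 38.8 CPM in WT cortex (log2 fold change 1.04 ± 0.11, adjusted p = 7.6e-06). Among genes of hypoxia and glycolysis, 14 of 27 were called lower and 7 higher. Eno1, a glycolytic enolase, was at 216 and 218 CPM in sorted cells, against 647 and 792 CPM in WT cortex (log2 fold change -1.74 ± 0.12, adjusted p = 2.0e-07). Aldoc, a brain aldolase also known from radial glia and astrocytes, was at 70.5 and 73.1 CPM in sorted cells, against 229 and 243 CPM in WT cortex (log2 fold change -1.72 ± 0.10, adjusted p = 7.9e-08). Gapdh was at 24.7 and 36.1 CPM in sorted cells, against 242 and 280.0 CPM in WT cortex; the genome holds many near-identical pseudogenes of it, so its level is uncertain. Ddit4, a stress-induced inhibitor of mTOR signalling, rose (1.57 ± 0.10, adjusted p = 1.8e-07).

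In cholesterol synthesis, 4 of 21 were called higher and 9 lower, beside 30.3% and 31.3% of all tested genes. Idi1, an isomerase of the pathway, was at 28.4 and 32 CPM in sorted cells, against 83.3 and 102 CPM in WT cortex (log2 fold change -1.62 ± 0.13, adjusted p = 8.7e-07). Cytosolic ribosomal protein genes showed no common direction, with 26 higher and 21 lower of 78 tested, near the shares over all tested genes. Without cortex library 1, 17 were called higher. Their pseudogenes are near-identical, so their counts are uncertain. Of 13 mitochondrially encoded genes, 7 were lower and 2 higher; their median of -0.57 was -0.21 with GC offsets.

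Long noncoding RNAs were called lower in 10 of 14 and higher in 2. The imprinted Rian was at 34.6 and 20.8 CPM in sorted cells, against 129 and 126 CPM in WT cortex (log2 fold change -2.22 ± 0.17, adjusted p = 6.7e-07). Pantr1, transcribed beside Pou3f3, rose with the POU factors, at 207 and 269 CPM in sorted cells, against 91.7 and 81.1 CPM in WT cortex (log2 fold change 1.46 ± 0.13, adjusted p = 2.0e-06). Peg13 rose as well (1.06 ± 0.10, adjusted p = 2.3e-06). Sox2ot, which overlaps Sox2, fell (-1.58 ± 0.15, adjusted p = 3.0e-06).

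Y-linked RNA was found in the sorted cells and not in the WT cortex. Ddx3y, Kdm5d, Uty and Eif2s3y, genes of the Y chromosome, had 0 counts in both WT cortex libraries. In the sorted cells Eif2s3y was at 60.4 and 68.5 CPM, at least 1870-fold higher against a floor of 3 counts over both cortex libraries, and Ddx3y at 50 and 55.9 CPM, at least 1537-fold higher. Xist, the RNA that silences an X chromosome in female cells, was at 1211 and 1252 CPM in sorted cells, against 2819 and 2699 CPM in WT cortex (log2 fold change -1.17 ± 0.10, adjusted p = 1.3e-06). Over 524 tested genes of the X chromosome the median log2 fold change was -0.29, against -0.01 over autosomes. The sex makeup behind the libraries thus differed along with stage and strain, and its part in other genes was not tested. Nnt, a mitochondrial gene known to carry a deletion in some C57BL/6 substrains, was detected in both groups, at 67.6 and 70.7 CPM in sorted cells, against 48.8 and 52.3 CPM in WT cortex (log2 fold change 0.45 ± 0.11, adjusted p = 0.0035). Its call was lost without cortex library 1 (log2 fold change 0.39, adjusted p = 0.0653), and counts per gene do not show whether exons are missing.

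Beyond the lists, some genes stood out by the size of their change among those with at least 20 CPM in the higher group. Erdr1, at the end of the sex chromosomes, was at 288 and 288 CPM in sorted cells, against 0.356 and 0.147 CPM in WT cortex. It is repeated in the genome, so its count is uncertain. Scand1, a SCAN domain protein, was at 75.5 and 55.7 CPM in sorted cells, against 0.534 and 0.421 CPM in WT cortex. Adamts2, a protease that processes collagen, was at 30.9 and 21.7 CPM in sorted cells, against 0.356 and 0.169 CPM in WT cortex. Fhl2, a LIM domain protein, was at 27.4 and 18.5 CPM in sorted cells, against 0.483 and 0.485 CPM in WT cortex. These rose, as did Fam160a1 and the tight junction gene Cldn3 (log2 fold changes 6.89 ± 0.26 and 6.28 ± 0.31). Among those that fell, Fndc3c1, an X-linked gene with fibronectin domains, was at 0.312 and 0.279 CPM in sorted cells, against 25.1 and 38.5 CPM in WT cortex. Cd34, a surface protein of endothelium and blood progenitors, was at 0.312 and 0.209 CPM in sorted cells, against 22.1 and 22.2 CPM in WT cortex. Myo7a, an unconventional myosin, was at 0.625 and 0.487 CPM in sorted cells, against 35.2 and 31.1 CPM in WT cortex. The groups were apart for all of these.

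Because fold changes moved with GC content, some of the values that moved by over 1.5 times with GC offsets are given here. Hes6 had a log2 fold change of 0.78, Srrm3 of 1.49, Dll3 of 1.08, Jag2 of 0.84 and Bax of 0.27 in that fit. Cdkn1c was at -1.43, Cdkn2c at -1.45, Notch1 at -0.80 and Slc17a7 at -1.16, all further from 0 than without the offsets. Ss18 was at -0.37, Ccne2 at -0.70 and Nlgn1 at -0.46. All of these kept their direction and call. Dcx, Fabp7 and Rspo3 were called higher in that fit, at 0.60, 0.28 and 0.56. Rspo3 was not called in the main test, at 0.31.

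**Figure D5:**
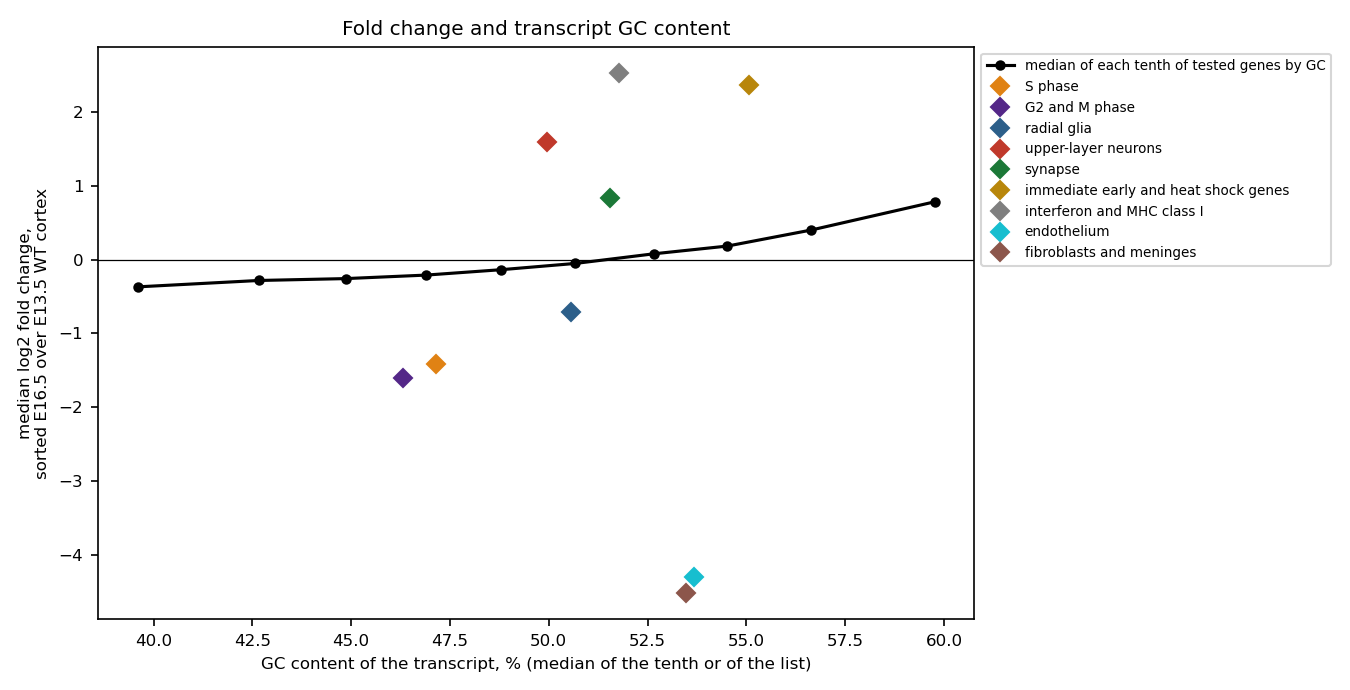
Median log2 fold change, sorted E16.5 cells over WT E13.5 cortex, in 10 equal bins of tested genes by transcript GC content (black line), with the medians of 9 lists as diamonds at their median GC content. The line climbs from -0.37 to 0.78 with GC content, and the diamonds of the cell cycle lists lie below it while those of immediate early, interferon and upper-layer genes lie above it.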

How the data were processed

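RNA of 2 libraries of sorted E16.5 control cells and 2 of E13.5 WT cortex was sequenced by the authors. Read counts per gene (integers) and FPKM (count scaled by gene length and library size) are as deposited; bcl2fastq, Trimmomatic, HISAT2, featureCounts and the mm10 build are named per the submitters' processing notes, while tool versions, annotation and strandedness are not stated there. Of 27178 gene identifiers, 25274 were named through RefSeq and 18 through GENCODE; 1886 had no name (0.423 to 0.968% of counts) and stayed in the fit. Counts were tested in R 4.3.3 with edgeR 4.0.16 (filterByExpr, TMM scaling, quasi-likelihood F-test, two-sided, Benjamini-Hochberg adjustment over 15111 genes); every adjusted p in the text is from this test unless another tool is named, and ± is the standard error of the log2 fold change. Calls past 2-fold used glmTreat. Alternatives were other scalings and filters, DESeq2 1.42.0, limma 3.58.1 on log2(FPKM + 0.1), thinned counts, a replicate block, each library left out, and GC offsets. Same-numbered libraries did not deviate together (r = -0.0237 across genes), so numbers do not pair them. With 2 libraries a group an exact permutation test cannot reach 0.05. The fit was also run on simulated counts, with balanced changes in far fewer genes than were called here. That setting differs from these data, so no conclusion is drawn from it. Named genes were the 12 largest changes each way with at least 20 CPM in the higher group, the 4 smallest p-values of each list, cell type markers and cell cycle regulators; other genes were chosen after their values were seen, as were the promoters shown. The members and lists were chosen with earlier results of these data known. The hairpin and knock-in libraries were not used. GC content was taken from GENCODE mouse transcripts, and promoters and microRNAs from RefSeq (GRCm38.p6). Some genes named by the rule are not reported here.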

Additional observations from a re-analysis of the deposited data

How the results depend on the processing

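Between 8343 and 9631 genes were called under the other scalings, filters, thinning, GC offsets, DESeq2 and limma, against 9311, and with a library left out 7044 to 9511 (3456 to 4662 higher, 3588 to 4849 lower). The threshold past 2-fold gave 2424 calls, 1159 higher and 1265 lower. With the replicate block 9256 genes were called (4529 higher, 4727 lower); same-numbered libraries share only a number. For 10 lists (replication, mitosis, radial glia, deep-layer, upper-layer, Cajal-Retzius, endothelial, fibroblast, immediate early and interferon genes), medians moved by more than their spread over pairs of libraries in these cases: without a filter, upper-layer genes to 1.42, fibroblast genes to -4.42 and immediate early genes to 2.14; with thinned counts, upper-layer genes to 1.34 and immediate early genes to 2.44; with GC offsets, replication genes to -1.21, endothelial genes to -4.68, fibroblast genes to -4.68 and immediate early genes to 2.07; on FPKM with limma, Cajal-Retzius genes to -2.48, endothelial genes to -2.87, fibroblast genes to -3.005 and immediate early genes to 2.26; immediate early genes to 2.33 with upper-quartile scaling and 2.57 with a minimum of 1 CPM. Of the 32 other lists, 18 moved beyond that spread with GC offsets, 6 without a filter, 4 with a minimum of 1 CPM, 4 with limma and 2 each with thinned counts and upper-quartile scaling. Among them, GC offsets gave -0.0094 for intermediate progenitors (0.20 in the main test), 0.55 for ion channels (0.35), 0.12 for axon guidance (0.18), -0.70 for cyclins and their partners (-0.85), -0.73 for CDK inhibitors (-0.15) and -0.75 for hypoxia and glycolysis (-0.44). Without a filter, medians turned sign for CDK inhibitors (0.53), oligodendrocyte precursors (0.99, against -0.091) and diencephalon genes (0.34, against -3.69 over 2 tested genes), and with the minimum of 1 CPM glial genes were at 0.10 (0.42). With limma, the replicate block and upper-quartile scaling, 1 median of the 32 turned sign in each. Of the 32, 11 moved without sorted library 1, 10 without sorted library 2, 9 without cortex library 1 and 7 without cortex library 2. Their medians turned sign in 2, 1, 2 and 1 lists, in that order. Of the 10 lists above, 5, 4, 1 and 4 moved in the same order, and none turned sign. The causes were not tested. Leaving out a library gave medians of -0.85 to -0.60 for deep-layer genes, 1.39 to 1.64 for upper-layer genes, -3.20 to -2.68 for Cajal-Retzius genes, -4.55 to -4.08 for endothelial genes, -5.00 to -4.14 for fibroblast genes, 2.22 to 2.72 for immediate early genes and 1.66 to 3.23 for interferon genes. Log2 fold changes that turned sign belonged to genes not called in the main test, other than Cdkn2d (-0.027 with GC offsets). With a library left out they ranged from -0.078 to 0.63 for Rspo3, -0.18 to 0.50 for Lars2, -0.076 to 0.058 for Fabp7, -0.51 to 0.19 for Neurog2, -0.45 to 0.041 for Rorb, -0.72 to 0.37 for Gad1, -0.43 to 0.45 for Gad2, -0.55 to 0.75 for Lhx6, -0.41 to 0.076 for Pdgfra, -1.61 to 0.0022 for Cx3cr1, -2.25 to 0.33 for Csf1r, -0.30 to 1.97 for C1qa and -0.069 to 0.18 for Cdt1. GC offsets gave 0.28 for Fabp7, 0.094 for Rorb, 0.21 for Gad2, -0.35 for Cdt1, 0.12 for Phf10 and -0.16 for Dpf1. Fabp7 was at 0.0001 with size factors and 0.0002 with DESeq2. Gad2 was at 0.018 with the replicate block, 0.045 thinned and 0.015 with limma, and Lhx6 at 0.069 with the replicate block and 0.078 with limma. The depth of the sorted libraries limits genes under about 0.234 CPM there.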
